A study of Caenorhabditis elegans with 83 samples.

Results

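Binding of SET-26 across the genome was compared between hcf-1(pk924) mutants and control worms that had been made germline-less by glp-1 RNAi, to ask whether SET-26 needs HCF-1 to sit on chromatin. The data were a pair of peak lists, 1 per genotype, each giving the intervals in which SET-26 was enriched over histone H3 of the same genotype. Every interval with its own chromosome, start and end was counted as 1 peak. The mutant list held 11314 peaks and the control list 12555, together 23869 of the 201446 peaks in the 22 lists of the series. A control peak was called kept if a mutant peak overlapped it by 1 bp or more and lost if none did, and a mutant peak that touched no control peak was called new.

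The mutant strain was IU718, hcf-1(pk924) rwIs27[set-26::ha], and the control strain IU717, rwIs27[set-26::ha]. In both strains the endogenous set-26 gene carried an HA tag at the end of its coding sequence, and both were fed glp-1 RNAi bacteria at 25 °C for about 48 hours and collected as day 1 adult hermaphrodites. CUT&RUN, in which an antibody steers a nuclease to cut out the DNA beside a bound protein, was done on about 3000 pooled worms per reaction with antibodies to HA and to H3, in 2 replicates each. These were 8 of the 83 samples. The authors called each list on merged replicates, so no value below has a replicate error, no difference was tested across replicates, and the 95% intervals (exact Clopper-Pearson) cover counting error only.

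SET-26 has a SET domain and a PHD finger that binds histone H3 trimethylated at lysine 4, the mark of active promoters, and its human relatives are MLL5 and SETD5. HCF-1 is the worm counterpart of mammalian host cell factor, a scaffold without a DNA-binding domain of its own that joins transcription factors to chromatin enzymes. Loss of either gene lengthens the life of the worm. Since whole worms were profiled, a lower enrichment can come from fewer cells with SET-26 at a site or from less SET-26 per cell, and these cannot be told apart.

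Examples of the 3 classes of peak are shown first as sequence, because the kept, lost and new sites differed in base composition and in the short motifs under their summits. Each window is 151 bp of the WBcel235 reference genome, plus strand, centred on the summit, and capitals mark any of the 5 motifs searched on both strands, which were the GATA factor motif TGATAA, the 8 letters CTGCGTCT, the repeat GAGAGA, the E2F-like motif TTCCCGC and the E-box CACGTG, and the capitals of overlapping motifs can merge. The first window is the strongest kept promoter peak, between cec-3, whose protein reads methylated lysine 9 of H3, and T09A5.15. The next pair are among the strongest lost peaks, upstream of ubxn-2, a gene for a UBX-domain protein, and of the F-box gene fbxa-24. The last 3 are strong new peaks, in an intron beside the cuticle collagen gene col-84 and upstream of cav-1, which encodes caveolin, and inx-2, which encodes a gap junction innexin. The cav-1 and inx-2 windows had 53.6% and 56.3% G+C, against 23.8% to 31.8% in the other 4, and the inx-2 window was the only 1 of the 6 with CTGCGTCT, on the minus strand inside a run of GAGAGA repeats.
cec-3 and T09A5.15, kept, II:7857640-7857790: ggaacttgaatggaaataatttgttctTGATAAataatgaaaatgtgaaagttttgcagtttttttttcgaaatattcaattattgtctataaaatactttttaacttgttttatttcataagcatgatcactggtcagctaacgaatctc
ubxn-2, lost, IV:2726029-2726179: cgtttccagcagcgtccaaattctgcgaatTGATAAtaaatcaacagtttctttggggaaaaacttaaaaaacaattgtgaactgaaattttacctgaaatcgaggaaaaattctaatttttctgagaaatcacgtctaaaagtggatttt
fbxa-24, lost, II:3815457-3815607: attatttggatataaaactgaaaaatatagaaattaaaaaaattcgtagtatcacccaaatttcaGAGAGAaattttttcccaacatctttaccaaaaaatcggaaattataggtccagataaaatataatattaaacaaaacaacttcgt
col-84, new, II:11867728-11867878: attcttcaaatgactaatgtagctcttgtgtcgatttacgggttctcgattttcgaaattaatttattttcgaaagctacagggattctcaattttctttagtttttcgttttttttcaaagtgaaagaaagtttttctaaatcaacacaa
cav-1, new, IV:9772215-9772365: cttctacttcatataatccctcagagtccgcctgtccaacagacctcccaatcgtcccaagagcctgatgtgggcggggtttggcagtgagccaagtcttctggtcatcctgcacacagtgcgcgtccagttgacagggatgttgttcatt
inx-2, new, X:11297099-11297249: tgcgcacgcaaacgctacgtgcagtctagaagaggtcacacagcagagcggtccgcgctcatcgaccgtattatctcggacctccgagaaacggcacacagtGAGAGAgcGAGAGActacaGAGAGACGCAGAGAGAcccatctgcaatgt

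Fewer and narrower intervals were called in the mutant. The ratio of mutant to control peak numbers was 0.901 (0.879 to 0.924), and the ratio of covered length was 0.749, with 8.78 Mb in the mutant and 11.7 Mb in the control. The shortfall lay at the strong end of the lists. Peaks enriched at least 2-fold over H3 numbered 4883 in the mutant and 7099 in the control (ratio 0.688, 0.663 to 0.714), and those enriched at least 5-fold 1143 in the mutant and 2017 in the control (0.567, 0.527 to 0.610). At 10-fold or more there were 207 mutant and 776 control peaks (0.267, 0.228 to 0.311). The single highest fold was 26.6 in the mutant and 49.9 in the control.

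Wide peaks thinned out in the same way, with 748 mutant and 1217 control peaks of 2000 bp or more and 141 mutant and 277 control peaks of 5000 bp or more. Median width was 475 bp in the mutant and 513 bp in the control, and each peak held 1.77 summits in the mutant and 2.00 in the control. The mutant libraries were the deeper ones, with 59.3 M SET-26 and 54.4 M H3 tags in the mutant and 38.4 M SET-26 and 40.4 M H3 tags in the control. A deeper library lets the caller reach weaker sites, and 1906 mutant peaks (16.8%) and 878 control peaks (6.99%) had a fold under 1.5. The part of depth in the differences between the lists was not tested.

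Of the control peaks, 8461 of 12555 were kept (67.4%, 66.6 to 68.2) and 4094 were lost (32.6%). Of the mutant peaks, 1186 of 11314 were new (10.5%, 9.92 to 11.1). The lost share of the control list was thus larger than the new share of the mutant list. The mutant list was called from more tags, and the part of depth in these shares was not tested. In base pairs, 7.93 Mb were covered in both lists, which was 90.4% of the mutant length and 67.7% of the control length. Most of the length that only the control covered was not in lost peaks. It lay in the uncovered flanks and gaps of kept peaks (2.28 Mb), with 1.5 Mb in lost peaks. Such length was below the caller's threshold in the mutant list, which does not show it to be free of SET-26.

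Lost peaks were weaker than kept ones. Lost peaks had a median fold of 1.71, a median width of 317 bp and a median −log10 q of 8.07 in the control, and kept peaks had 2.70, 698 bp and 39.3. Only 750 of the 4094 lost peaks reached 2-fold, 34 reached 3-fold and 8 reached 4-fold. When the control peaks were ranked by −log10 q and divided into 5 strata of equal size, the kept share was 28.8% in stratum 1, the weakest, then 44.5%, 69.7% and 94.3%, and 99.7% in stratum 5. Stratum 5 lost 7 of its 2511 peaks. By width the kept share ran from 26.9% in the narrowest to 98.9% in the widest stratum. The peaks nearest to the boundary between the classes looked alike in the control. The 61 kept peaks overlapped by less than 50 bp had a median fold of 1.62, and the 143 lost peaks with a mutant peak within 100 bp had a median of 1.62 as well. With these counted, a mutant peak lay within 500 bp of 28.3% of the lost peaks.

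The 8 lost peaks with the highest −log10 q were enriched 4.09- to 5.0-fold in the control. The strongest lay at IV:2895896-2896617 between Y54G2A.36 and Y54G2A.19 (4.86-fold) and had no mutant peak on the empty vector L4440, which leaves the germline in place, although the control list of L4440 worms held 1 there (2.77-fold). The peak upstream of ubxn-2 (IV:2725728-2726266) had 4.89-fold enrichment in the control and the peak near fbxa-24 (II:3814968-3815995) 4.57-fold. Both also lacked a mutant peak on L4440 and had control peaks there, of 2.35-fold and 2.00-fold. HCF-1 itself had a peak at all 8 sites in control worms on glp-1 RNAi, of 1.81- to 4.30-fold. At 3 of the 8 sites a mutant peak was present on L4440. The peak between Y14H12B.1 and Y14H12B.2 (II:3933862-3934323) was 4.09-fold in the control and absent from the mutant on glp-1 RNAi, but on L4440 it was 5.33-fold in the mutant and 8.36-fold in the control.

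New peaks were weak as a class, with a median fold of 1.57 and a median width of 290 bp, against 1.93 and 507 bp for the mutant peaks shared with the control. Their share fell with strength, from 21.8% of the mutant peaks in the weakest stratum by −log10 q to 1.19% in the strongest, and only 29 reached 3-fold and 7 reached 4-fold. The few strong ones stood out. The peak beside col-84 (II:11867421-11868860) was 9.35-fold enriched in the mutant on glp-1 RNAi with no control peak, and again 9.61-fold in the mutant with no control peak on L4440. HDA-1, a class I histone deacetylase, had a 3.93-fold peak there in hcf-1(pk924) worms and none in control worms on glp-1 RNAi. The peak upstream of cav-1 (IV:9772023-9774493) was 6.56-fold in the mutant on glp-1 RNAi, and 7.19-fold in the mutant and 2.00-fold in the control on L4440. The peak upstream of inx-2 (X:11296870-11297445) was 4.87-fold in the mutant on glp-1 RNAi and 4.98-fold in the mutant on L4440, with no control peak in either feeding setting. SET-26 was not absent from these sites in all control worms. The SET-26 list of wild type worms on OP50, called against antibody background, had a peak of 1.96-fold at col-84, 4.85-fold at cav-1 and 2.19-fold at inx-2. None of these 3 sites had an HCF-1 peak in control worms on glp-1 RNAi.

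**Figure D1:**
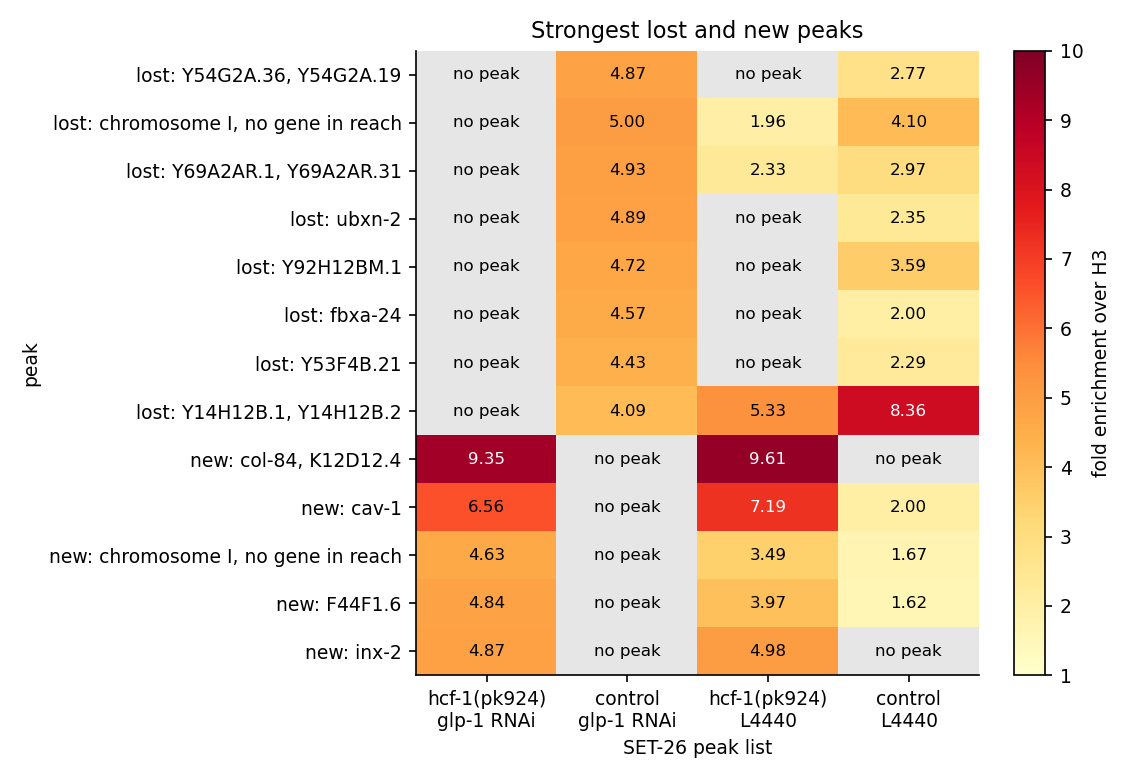
Fold enrichment of SET-26 over H3 at the 8 strongest lost and the 5 strongest new nuclear peaks (down the page) in the mutant and control lists of glp-1 RNAi worms and of worms on the empty vector L4440, which keep their germline (across). Grey cells have no peak. The col-84 and inx-2 sites had a peak in both mutant lists and in neither control list, and 5 of the 8 lost sites had a peak in both control lists and in neither mutant list.

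The 3 new peaks with the highest −log10 q covered nearly all of the mitochondrial genome at 1.61- to 1.62-fold. No control peak was called there, but 13 of the 20 other lists of the series had at least 1 mitochondrial peak, lists of control worms among them.

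Peaks that stayed were lower and narrower. For 6178 control peaks overlapped by a single mutant peak that touched no other, the ratio of mutant to control fold was calculated for each pair. It had a median of 0.757 (quartiles 0.627 and 0.893), and the fold was lower in the mutant in 5403 pairs (87.5%, 86.6 to 88.3). The width ratio had a median of 0.817 (quartiles 0.636 and 0.975), and 4839 pairs were narrower in the mutant (78.3%, 77.3 to 79.4). The summits of a pair lay a median of 31 bp apart in pairs that overlap by construction. Another 1524 control peaks were divided among 2 or more mutant peaks, up to 10 for 1 control peak, and had a median width of 2282 bp with 1863 bp of mutant peaks in their place. The reverse, a mutant peak that joined 2 or more control peaks, was seen 541 times.

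**Figure D2:**
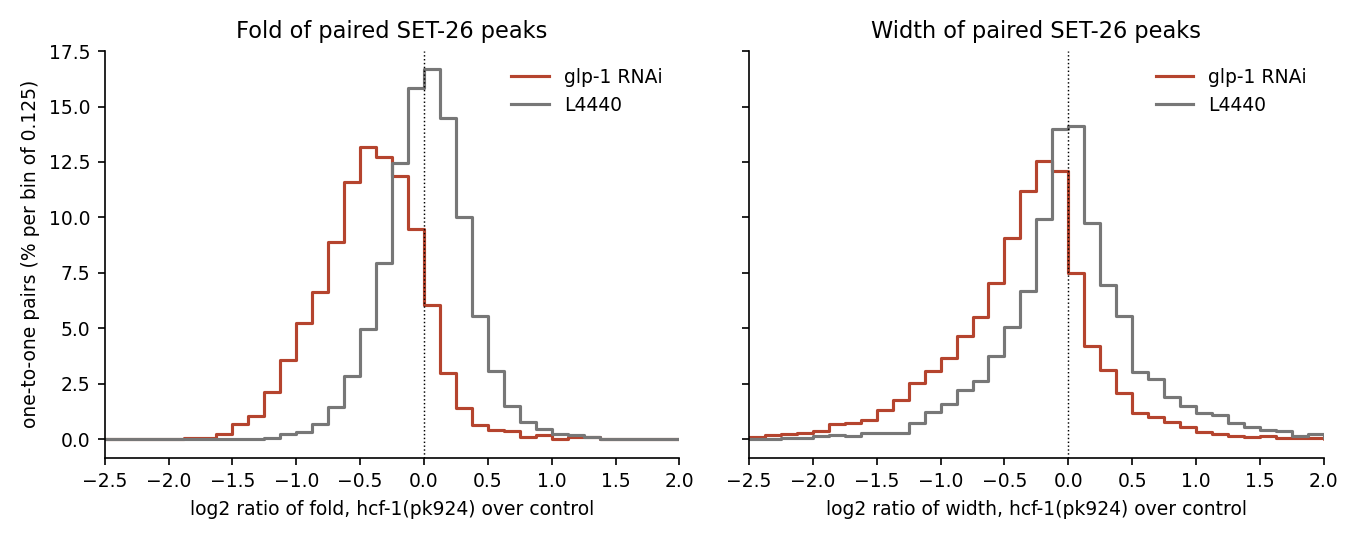
Distribution of the log2 ratio of fold (left) and of width (right), hcf-1(pk924) over control, for one-to-one pairs of SET-26 peaks, as a percentage of pairs per bin. On glp-1 RNAi (red, 6178 pairs) the medians of the plain ratios were 0.757 and 0.817, and on L4440 (grey, 5395 pairs) they were 1.02 and 1.00.

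In pairs called in both lists, the ratio was lowest at the strongest sites. A weak control peak with a low ratio tends to fall below the caller's threshold in the mutant, and is then lost rather than paired. This can lift the ratio of weak pairs, and the part of such selection in the slope was not tested. In stratum 1 by control −log10 q, 28.8% of peaks were kept, and the pairs had a median ratio of 1.005. Among pairs with a geometric mean fold of 1.5 to 2 the median ratio was 0.838, at 2 to 3 it was 0.728, at 3 to 5 it was 0.662, at 5 to 10 it was 0.609 and at 10 or more it was 0.549. Binned by the control fold alone, the ratio went down further, to 0.535 at 10 or more, but that scale is also the denominator of the ratio and favours such a slope. Binned by the mutant fold, which favours the opposite slope, the ratio was 0.801 at 1.5 to 2 and 0.607 at 10 or more. The order of the bins from 2-fold upward was thus the same on all 3 scales, all of which use only pairs called in both lists. Width behaved differently, with a median ratio of 0.782 at a mean fold of 1.5 to 2 and 0.941 at 10 or more (141 pairs). Divided control peaks are not among these pairs.

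**Figure D3:**
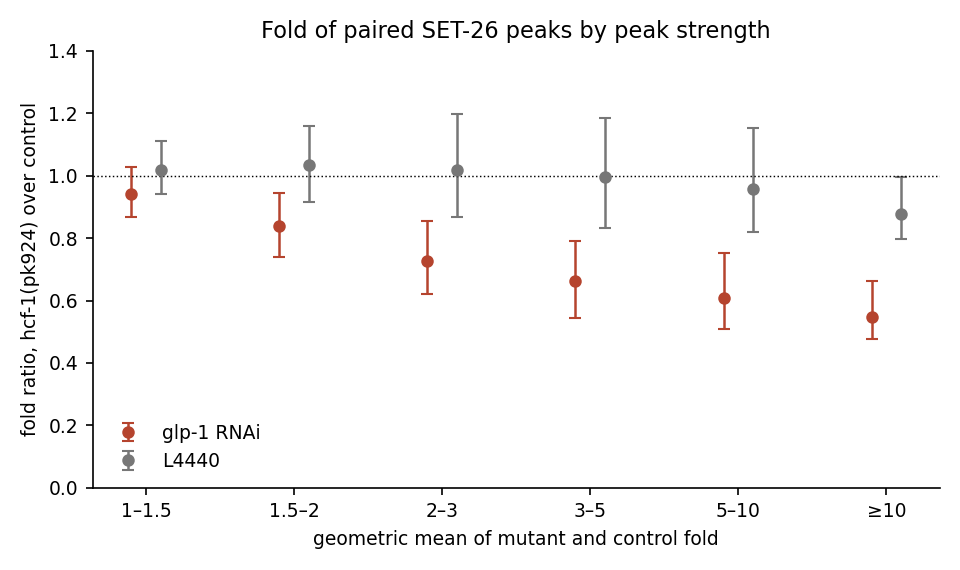
Median ratio of fold, hcf-1(pk924) over control, of paired SET-26 peaks against the geometric mean of the 2 folds, with quartiles as bars, in glp-1 RNAi worms (red) and in L4440 worms (grey). On glp-1 RNAi the median went down to 0.549 in the strongest bin, and on L4440 it was 0.876 there.

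The strongest kept peaks were lower in the mutant at single sites too. They were chosen by their control −log10 q, which favours a lower value in the mutant. At the cec-3 and T09A5.15 promoters (II:7856711-7859121 in the control) the fold was 18 in the mutant and 44.2 in the control, and the width 1385 bp in the mutant and 2411 bp in the control. At npp-18, which encodes a nuclear pore protein, the fold was 15.8 in the mutant and 46.2 in the control, and at snx-13 and its neighbour snr-1, a gene for an Sm protein of the spliceosome, it was 20.2 in the mutant and 44.2 in the control. The most enriched control peak of all, at ech-5 for an enoyl-CoA hydratase, was divided, and its strongest mutant piece had 20.7-fold enrichment, against 49.9-fold in the control. All 4 sites remained among the 207 mutant peaks of 10-fold or more. On L4440 the fold at cec-3 was 23.2 in the mutant and 22.6 in the control. At npp-18 it was 17.7 in the mutant and 24.9 in the control there. At snx-13 it was 18.4 in the mutant and 21.8 in the control, and at ech-5 24.4 and 26.6.

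Some pairs moved far from the median ratio in either direction. Among pairs whose control −log10 q was above the median, the lowest fold ratio was at cyn-3, a cyclophilin gene, with 1.97-fold in the mutant and 7.47-fold in the control. At ntl-11, for a subunit of the CCR4-NOT deadenylase, the fold was 2.70 in the mutant and 9.5 in the control. Rises were rarer, and the 3 given here recurred on L4440. The peak upstream of F54D5.5 was 7.69-fold in the mutant and 2.98-fold in the control on glp-1 RNAi, and 7.71-fold in the mutant and 3.21-fold in the control on L4440. At wrm-1, which encodes a beta-catenin, the fold was 5.26 in the mutant and 2.66 in the control on glp-1 RNAi, and 4.57 in the mutant and 2.50 in the control on L4440. At EEED8.15 it was 6.02 in the mutant and 2.74 in the control, and 5.95 in the mutant and 2.4 in the control on L4440. Among pairs whose control fold was above the median, the largest width ratio was at tofu-6, a gene of the piRNA pathway, with 1370 bp in the mutant and 405 bp in the control. Among these pairs, 1 of the lowest width ratios was at T07F8.1, with 307 bp in the mutant and 1999 bp in the control.

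HCF-1 occupancy in control worms marked the strong SET-26 peaks, and among peaks of similar strength the kept shares with and without it lay close together. Control SET-26 peaks that overlapped an HCF-1 peak were kept in 82.0% of cases (81.1 to 82.9, n = 6699), against 50.7% without HCF-1 (49.4 to 52, n = 5856). Of the control peaks in the weakest stratum 21.9% had HCF-1, and of those in the strongest 98.8%. Within the strata the gap was small. The kept shares with and without HCF-1 were 28.8% and 28.7% in stratum 1, 45.2% and 44.2% in stratum 2, 71.2% and 68.6% in stratum 3, and 95% and 92.2% in stratum 4. Their intervals overlapped in each of these strata. The fold ratio of paired peaks followed the same rule, with a pooled median of 0.706 with HCF-1 and 0.840 without, but 0.692 with and 0.664 without in stratum 4. Sites without an HCF-1 peak in control worms thus had a ratio as low as that of HCF-1 sites, or lower, in each of the 5 strata.

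The new share differed between peaks with and without either factor. Of the new peaks 17.3% (15.2 to 19.6) lay at an HCF-1 peak of control worms, against 61.4% of the mutant peaks shared with the control. New peaks have no control SET-26 peak by definition, and control HCF-1 and HDA-1 peaks often lie at control SET-26 peaks. A low share of either factor thus follows in part from the definition. The shares also differed within strata of mutant strength. In the weakest stratum of mutant peaks 15.8% of those with HCF-1 and 23.7% of those without were new. In stratum 4 it was 1.01% with HCF-1 (0.602 to 1.60) and 20.1% without (16.6 to 23.9), and in stratum 5 it was 7 of 2204 with HCF-1 and 20 of 59 without. The intervals with and without HCF-1 did not overlap in any of the 5 strata. These strata match mutant strength and not control SET-26 signal, so they do not remove the effect of the definition. An HDA-1 peak of control worms lay at 21.4% of new and 53.8% of shared mutant peaks, and in stratum 4 the new share was 1.65% with HDA-1 and 11.4% without, in stratum 5 0.146% with and 11.8% without. Control peaks were kept in 80.1% of cases with an HDA-1 peak and in 55.1% without. In stratum 1 this was 26.6% with and 29.5% without, and in stratum 4 it was 96.3% with (95.2 to 97.2) and 91.2% without (89.2 to 92.9), intervals that did not overlap. Of peaks with both factors 84.4% were kept, of those with HCF-1 alone 70.9%, with HDA-1 alone 45.1% and with neither 51.4%, in the order of their median control folds except that HDA-1 alone (1.82-fold) and neither (1.79-fold) changed places.

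**Figure D4:**
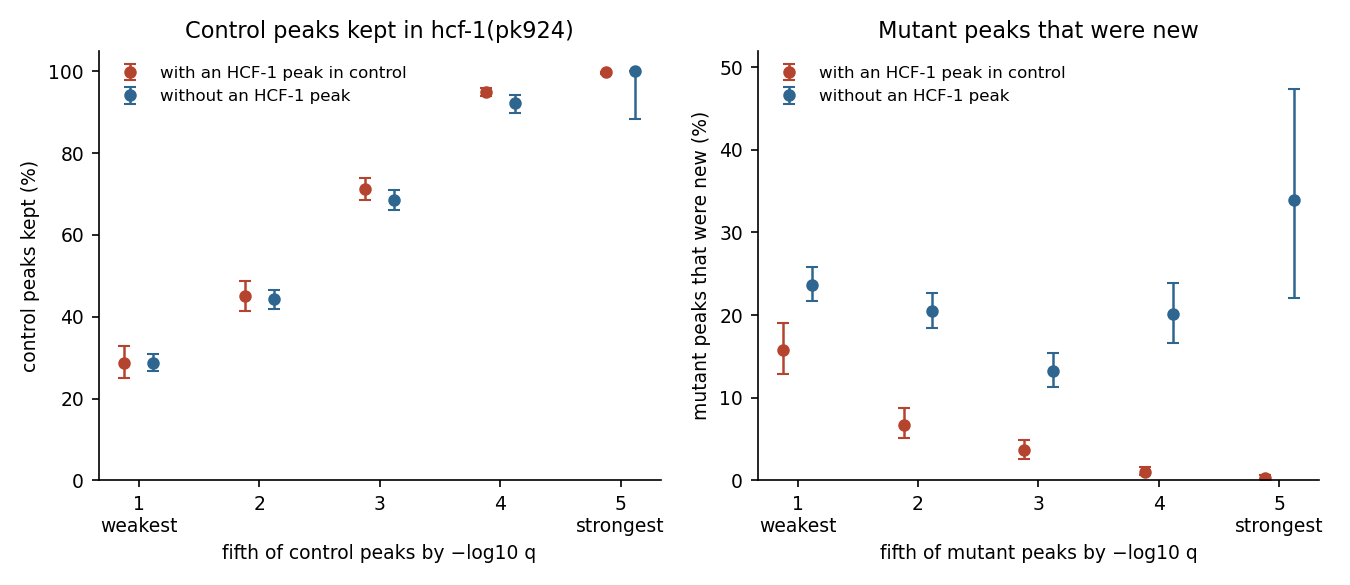
Share of control SET-26 peaks kept in hcf-1(pk924) (left) and share of mutant peaks that were new (right), in 5 strata of −log10 q, for peaks with (red) and without (blue) an HCF-1 peak in control worms on glp-1 RNAi, with exact 95% intervals as bars. The kept share went up with strength alike in both sets, while new peaks in stratum 5 made up 33.9% of the 59 peaks without HCF-1.

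Peaks near gene starts were kept more often, with similar shares near and far among peaks of similar strength. The summit lay within 500 bp of a protein-coding gene start in 39.3% of kept, 19.7% of lost and 21.8% of new peaks, and 42.5% of lost peaks had their summit in an intron, against 28.7% of kept and 31.1% of new peaks. The kept share was 80.5% within 500 bp of a start and 61.0% farther away, but 31.1% and 28.3% in stratum 1 and 93.2% and 94.9% in stratum 4. The X chromosome had the lowest kept share, with 62% of its control peaks kept (59.1 to 64.9), against 67.9% on the autosomes together. Chromosome V was close to it, with 63.6% (61.2 to 65.9). The gap between X and the pooled autosomes was widest among weak peaks. In stratum 1 the kept share was 20.6% on X (15.6 to 26.5) and 29.6% on the autosomes (27.7 to 31.5), while in stratum 4 it was 96.2% on X and 94.1% on the autosomes. New peaks made up 16% of mutant peaks on X (13.7 to 18.6) and 9.99% on the autosomes (9.42 to 10.6). The share on chromosome II, 13.1% (11.6 to 14.6), had an interval that overlapped that of X. On the autosomes new peaks were 14.7% of mutant peaks toward the chromosome ends (the first and last of 5 equal segments) and 8.71% in the 3 segments between, and on chromosome II they were 23.5% and 10.1%.

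The windows under the summits differed between the classes as well. In 200 bp around each summit, CTGCGTCT or its reverse complement occurred in 10.2% of kept, 2.69% of lost and 4.82% of new peaks, against 1.69% of windows of that length at all gene starts. GAGAGA occurred in 30.1% of kept, 17% of lost and 23.5% of new peaks and at 13.9% of gene starts, and TGATAA in 18.9% of kept, 22.3% of lost and 15.1% of new peaks and at 20.5% of gene starts. The other 2 motifs were rare in every class, with TTCCCGC in 2.28% of kept, 1.39% of lost and 1.52% of new peaks and at 1.75% of gene starts, and CACGTG in 3.91% of kept, 3.49% of lost and 2.87% of new peaks and at 4.37% of gene starts. Within strata of −log10 q, CTGCGTCT was found in 3.19% of kept and 2.18% of lost peaks of stratum 1, 5.55% and 2.65% in stratum 2, 7.14% and 3.95% in stratum 3, and 12% and 2.78% in stratum 4. TGATAA was found in 18.56% of kept and 22.75% of lost peaks of stratum 1. The kept and lost shares lay closer together in stratum 2 (22.65% and 22.02%), stratum 3 (21.47% and 21.97%) and stratum 4 (19.9% and 21.53%). Stratum 5, with 7 lost peaks, had TGATAA in 14.54% of its kept peaks. The median G+C content was 37% in kept, 35% in lost and 40.5% in new peaks and 36% at gene starts. Most of the windows printed above lay outside the quartiles of their class. The cav-1 (53.6%) and inx-2 (56.3%) windows were above the upper quartile of new peaks (45.5%), and col-84 (29.1%) was below the lower (36%). The cec-3 window (25.8%) was below the lower quartile of kept peaks (32%). Of the lost peaks, fbxa-24 (23.8%) was below the lower quartile (30%) and ubxn-2 (31.8%) was above it.

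At the level of genes, 7725 of 19985 protein-coding genes (38.7%) had a control SET-26 peak in the promoter window, taken as the 2000 bp before the start and the first 500 bp after it. Of these, 6772 had a mutant peak in the window too, 953 had none (12.3%), and 354 of the 7126 genes bound in the mutant had no control peak (4.97%). The median fold ratio of the kept genes was 0.610, and 1686 of them (24.9%) had a ratio under 0.5. The mutant and control peaks behind such a ratio both reached the window but were not always at the same site. At set-25 the mutant peak (12.3-fold) did not overlap the control peak (46.2-fold). The lowest ratio, 0.0427, set a 2.13-fold mutant piece against a control peak of 49.9-fold. One-to-one pairs had a median of 0.757 with 7.82% under 0.5, at a median control fold of 2.55, against 5.27 for bound genes. A wide peak can reach the windows of several genes, so neighbours can share 1 peak.

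Genes for the basic machinery of the cell had the strongest control peaks, kept nearly all of them, and had ratios below the 0.610 of all kept genes. Keeping the peak was general at such strength. Of all genes with a control fold of 5 to 10, 30 of 1815 lost the peak (1.65%), and at 10 or more 11 of 2201 (0.5%). All 82 bound genes of the cytosolic ribosome (of 84) kept a peak, with a median fold of 8.37 in the mutant and 16.51 in the control and a median ratio of 0.497. At rps-13 the fold was 17.6 in the mutant and 43.3 in the control, and the peak was 8302 bp wide in the mutant and 21317 bp in the control. Oxidative phosphorylation kept 48 of 49 genes with a median ratio of 0.496, the mitochondrial ribosome 66 of 68 with 0.523, and the proteasome 32 of 33 with 0.524. The complex I gene nduf-6 had 15.8-fold in the mutant and 37-fold in the control. The single oxidative phosphorylation gene without a mutant peak was nuo-5, a complex I subunit gene, whose control peak was weak (2.86-fold). Among all genes with a control fold of 10 or more the median ratio was 0.512. In that range oxidative phosphorylation had 0.468 (n = 29), the cytosolic ribosome 0.492 (n = 70), the mitochondrial ribosome 0.502 (n = 35), the proteasome 0.511 (n = 26) and splicing genes 0.519 (n = 34).

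Chromatin regulators had higher ratios. All 45 bound genes of this list kept a peak, with a median ratio of 0.702, and among those with a control fold of 10 or more the ratio was 0.647 (n = 21), against the 0.512 of all such genes. The longevity regulators kept 25 of 26 genes with a median ratio of 0.659. For tcer-1, a transcription elongation factor gene needed for the long life of germline-less worms, the fold was 8.21 in the mutant and 21.6 in the control. The gene without a mutant peak was age-1, the catalytic subunit of phosphoinositide 3-kinase, with 1.51-fold in the control. Of the genes for the profiled factors, set-26 had 7.77-fold in the mutant and 14.4-fold in the control and hda-1 4.49-fold in the mutant and 7.69-fold in the control. Of the lipid metabolism genes 37 of 59 were bound (62.7%, against 38.7% of all genes), 3 of the 37 were without a mutant peak (8.11%, against 12.3%), and 3 more, acs-2, lbp-1 and vit-2, had a peak in the mutant alone, of 1.55- to 1.67-fold.

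**Figure D5:**
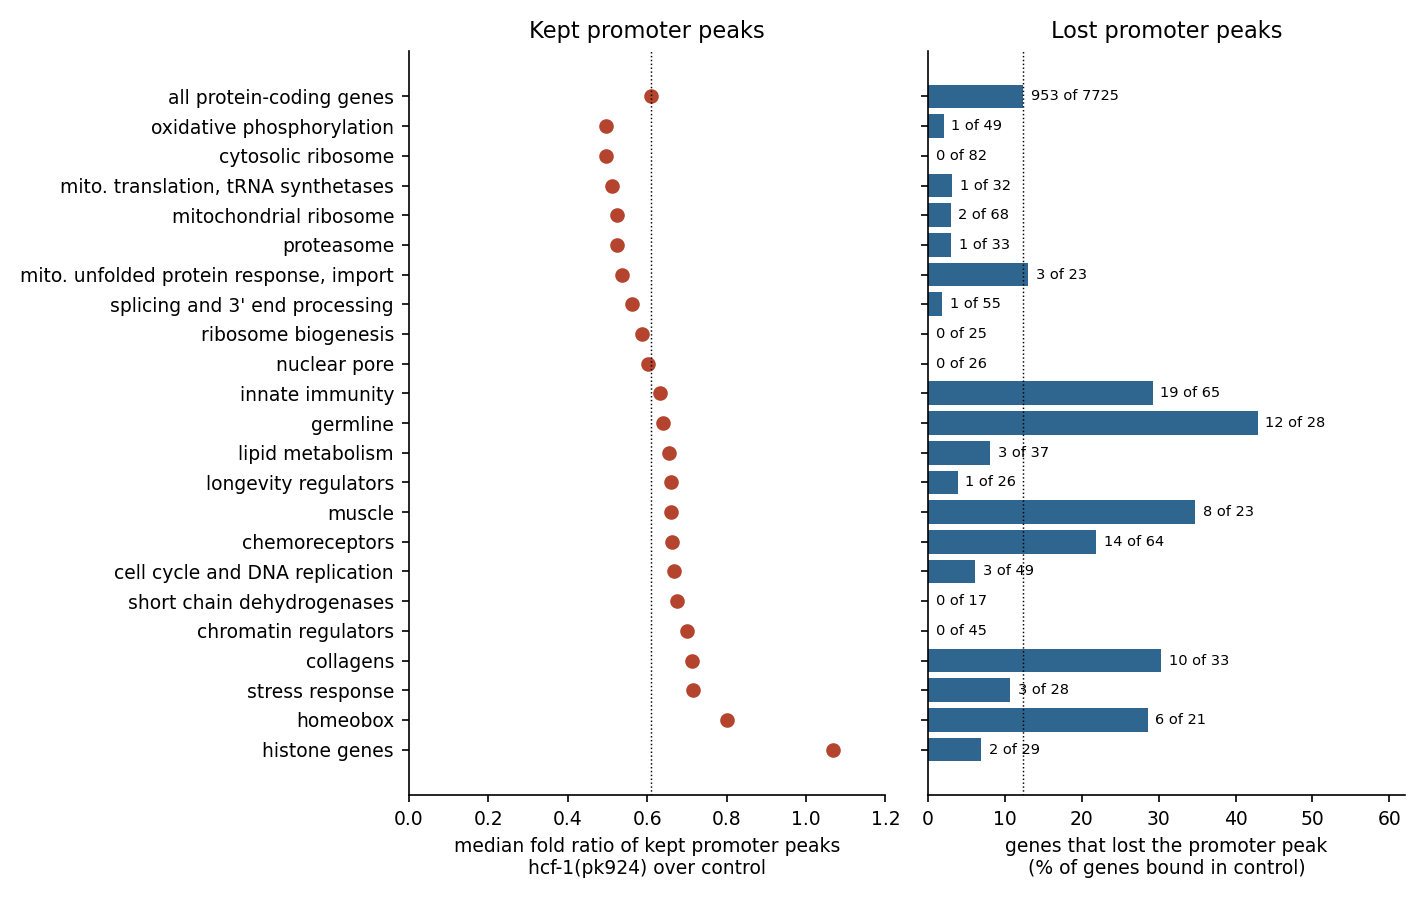
Median fold ratio of promoter peaks kept in hcf-1(pk924) (left) and percentage of genes bound in control that had no mutant peak in the promoter window (right, with counts), for gene lists with at least 15 bound genes, with dotted lines at the values of all protein-coding genes (0.610 and 12.3%). The germline list lost 12 of 28 and the cytosolic ribosome list 0 of 82, and the histone genes were the only list drawn with a ratio above 1 (1.07).

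The germline, muscle, collagen and intestine lists lost a larger share of their peaks than the 12.3% of all genes. So did the innate immunity (19 of 65, 29.2%), homeobox (6 of 21, 28.6%) and chemoreceptor lists (14 of 64, 21.9%). The neuron list, with only 9 bound genes, lost none. Of 28 bound germline genes 12 lost the peak (42.9%), among them him-3, htp-2 and htp-3 of the meiotic chromosome axis and pgl-1, pgl-3, glh-2 and glh-4 of the germ granules. Their control folds were 1.56 to 2.92. Of the germline genes with a control fold of 1 to 2, 9 of 10 lost the peak, against 54.7% of all genes in that range, and at 2 to 3 it was 3 of 5, against 20.8%. On L4440 3 of 36 bound germline genes lost the peak (8.33%, against 5.94% of all bound genes there). Germ cells left after RNAi were not counted, and whether their number differed between the strains was not tested. Of the 8 germline markers, glh-1 had 8.27-fold in the mutant and 12.2-fold in the control and gld-1 1.77-fold in the mutant and 4.40-fold in the control, 4 had a peak in the control alone, and syp-1 and rme-2 had none. None of the 3 sperm or 4 epidermis markers had a peak in either list. Muscle lost 8 of 23 genes, collagens 10 of 33 and intestine 4 of 7, while the neuron list had 9 bound genes. At a control fold of 1 to 2, muscle lost 5 of 6 and collagens 8 of 12, against 54.7% of all genes, and at 2 to 3 muscle lost 3 of 8 and collagens 1 of 7, against 20.8%. The intestine genes had a median control fold of 1.65. On L4440 muscle lost 4 of 14 genes, collagens 4 of 27, intestine 1 of 2 and neurons 1 of 6. For myo-3, col-91, trx-2 and his-74 the control peak itself was overlapped by a mutant peak that ended outside the window.

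The histone genes gained calls. They made up 39 of the 354 genes with a new promoter peak. These were 59.1% of the 66 histone genes bound in the mutant, against 4.97% of all genes bound in the mutant. Another 27 histone genes kept a peak, and 2 of 29 bound in the control lost it (6.9%, against 12.3% of all genes). The new calls rested on 21 mutant peaks of 1.65- to 2.92-fold, all of them without an overlapping control peak, the strongest at a gene model named his-9 on chromosome II. Most of these genes encode the replication-dependent core histones and lie in clusters of nearly identical copies, so a read cannot always be placed, the 39 gene models carry only 25 different names, and the calls at single copies are uncertain. On L4440 37 of the 39 had a mutant peak and 9 a control peak. The kept histone genes had a median ratio of 1.07. At his-72, which encodes an H3.3 variant outside these clusters, the fold was 5.44 in the mutant and 11 in the control.

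The same comparison in worms on L4440, which have a germline, gave ratios near 1. There the mutant list had 10576 peaks and the control list 10119 (ratio 1.045), 83.0% of control peaks were kept (82.3 to 83.8), 21.7% of mutant peaks were new, and the median ratios of 5395 pairs were 1.02 for fold and 1.00 for width. The kept share in the weakest stratum was 60.2%, against 28.8% on glp-1 RNAi, and in the strongest 99.8%, against 99.7%. Tags per list were 46.9 M in the mutant and 52.5 M in the control for SET-26 on L4440, so the deeper list was the control there and the mutant on glp-1 RNAi. Each setting has 1 list per genotype, and the difference between the settings was not tested. Site by site some of the changes recurred. Of the 4094 peaks lost on glp-1 RNAi, 1293 had a control peak on L4440, and 39.4% of these (36.7 to 42.1) had no mutant peak there, against 5.75% of 6857 kept peaks, a comparison not matched for strength. Of the 1186 new peaks, 579 (48.8%) had a mutant peak on L4440 and 421 (35.5%) had a mutant peak and no control peak. In germline-less glp-1(e2141) worms, whose SET-26 list was called against antibody background, 91.6% of kept, 50.1% of lost and 28.9% of new peaks had a counterpart.

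A pair of loci bear on the labels. At hcf-1 (IV:7770770-7774275, minus strand) the control peak ran from 7772594 to 7778456 with 16.3-fold enrichment. It was divided in the mutant, with a piece from 7773952 to 7775371 (9.20-fold) and another from 7775476 to 7778288 (2.55-fold). A stretch of 1614 bp inside the gene (IV:7772292-7773905), chosen after the lists were seen, was covered over 0 bp in both SET-26 lists of hcf-1(pk924) worms, and over 90.8% on glp-1 RNAi and 97% on L4440 in control worms. The SET-26 control lists called against antibody background covered 100% of it in wild type worms on OP50 and 23.5% in glp-1(e2141) worms. No HCF-1 or HDA-1 list covered more than 12% of it in any genotype. In a coding exon of glp-1, the gene targeted by the RNAi (III:9098406-9099454 in the control), the summit pileup was 13504 fragments in the mutant (1.65-fold) and 51782 in the control (3.52-fold), which gave the highest −log10 q of the control list. This peak was present in 7 of 7 lists of glp-1 RNAi worms, whichever factor was profiled, with pileups of 9114 to 108917, and in the other 15 lists it was absent or had a pileup of at most 219. RNAi bacteria carry DNA of the targeted gene, and the part of such DNA in this peak was not tested. It is 1 of the 8461 kept peaks.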

How the data were processed

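SET-26 and H3 CUT&RUN libraries of both genotypes were used. Per the study's methods and the submitters' processing notes, the authors trimmed reads with Trim Galore 0.6.5, aligned them with Bowtie2 2.4.3 to WBcel235 (ce11), merged replicates with SAMtools and called peaks against H3 with MACS2 2.1.4 (q-value threshold 0.01), scaling the larger library to the smaller. The deposited signal is the fragment pileup at a summit after that scaling, the deposited fold is the authors' ratio of pileup to local background, and the deposited −log10 q is from the authors' test. Coverage scaled in this way makes fold comparable within a list more than between lists of unequal depth.

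Entries with the same interval were counted once, with the values of the summit of highest −log10 q. Intervals were compared in Python 3.11.15 (pandas 2.3.3, numpy 2.4.6, SciPy 1.17.1), with an overlap minimum of 1 bp, and the overlap code was tested on simulated intervals. Gene starts came from Ensembl release 115, and sequences from the WBcel235 genome. Members, the 24 gene lists and the comparisons were chosen with earlier results of these data known. Named peaks are the 6 kept, 8 lost and 8 new ones of highest −log10 q, the 5 most extreme pairs each way in width and fold, and, per gene list, the kept, lost and new member of highest fold, of which those bearing on a result are given. Overlap, threshold, pairing and gene-window alternatives were tried. The authors' test of differential binding, which needs replicate reads, was not repeated.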

Additional observations from a re-analysis of the deposited data

Results flagged for a closer look

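The ratios of hcf-1(pk924) to control were below 1 on glp-1 RNAi and near or just above 1 on L4440, with 1 list per genotype in each, and the difference was not tested. The ratio of mutant to control peak numbers was 0.901 on glp-1 RNAi and 1.045 on L4440. The median ratio of width was 0.817 on glp-1 RNAi and 1.001 on L4440, and that of fold 0.757 on glp-1 RNAi and 1.018 on L4440.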

How the results depend on the processing

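No paired analysis was possible because each list was called on merged replicates, and for the same reason no replicate could be left out. Under every alternative run, the mutant had fewer peaks where their number was free, less covered length, and mostly narrower and lower pairs, and 15 values stayed within the counting interval of the value given in the report and 28 lay outside it, while the 4 ratios of covered length have no such interval. With peaks of −log10 q 5 or more in both lists, the ratio of peak numbers was 0.878, that of covered length 0.738, the share of pairs with lower fold 88.6%, and the kept share without HCF-1 48%. With a fold of 2 or more in both, the peak ratio was 0.688, the length ratio 0.633, the kept share 58.8%, the new share 6.14%, the kept share 70.1% with and 27.2% without HCF-1, and 82.5% of pairs were narrower and 90.6% lower. With the same number of peaks from each list, the kept share was 72%, the new share 12.5%, the kept share 84.2% with and 55.8% without HCF-1, and 89.5% of pairs were lower. With at least 50% of the peak required to overlap, the kept share was 57.9% and the new share 13.2%, 72.9% were kept with and 47.1% without HCF-1, and 75.5% of pairs were narrower and 86.3% lower. With the summit required inside a peak of the other list, the kept share was 63.4% and the new share 13%, and with gaps of up to 500 bp allowed 76.6% and 7.49%. With the mutant peak of largest overlap for each control peak, 75.2% of pairs were narrower and 85.7% lower. The length ratio was 0.753 without X and the mitochondrial genome and 0.75 with intervals joined within 200 bp. With a gene window of 1000 bp before to 200 bp after the start, 13.2% of bound genes lost the peak. The differences between these values were not tested for a cause. Depth per replicate is unknown, weak sites depend on it most, and a lost peak is a site below the caller's threshold, not an empty one.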
